A study of Drosophila melanogaster with 2 samples.

Results

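MicroRNA genes were taken as all genes on the 6 main chromosome arms of the Ensembl BDGP6 annotation of Drosophila melanogaster whose symbol starts with mir-, which gave 260 of 17683 genes. The annotated unit is the hairpin precursor, with a median length of 92 bp (50 to 174 bp). Genome occupancy was measured by chromatin immunoprecipitation and sequencing in whole prepupae aged 2 days that carried a CG15336-eGFP fusion, with an antibody against GFP. CG15336 is a protein-coding gene known by its annotation number. The series held 1 group of 2 biological replicates, with chromatin sonicated to 200 to 800 bp, and the fusion, the stage and the antibody were common to both. An untagged or other control was not analysed here. Because whole animals were used, a site bound in a few cells and a site weakly bound in many cells cannot be told apart.

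MicroRNAs are short RNAs that guide Argonaute proteins to messenger RNAs and lower their output. RNA polymerase II makes a long primary transcript, the nuclear enzyme Drosha cuts out the hairpin, and Dicer-1 trims it to the mature form. The start of the primary transcript can lie far upstream of the hairpin, and many hairpins lie within introns or exons of another gene, called the host here. Bases 2 to 8 of the mature form, the seed, decide most of its targets. In the fly, the ecdysone pulses of metamorphosis induce the let-7 complex, and bantam promotes tissue growth.

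The authors called peaks for either replicate and for the pair. Replicate 1 gave 6678 peaks and replicate 2 gave 8219 past the authors' threshold on the irreproducible discovery rate, and the conservative list made from both held 9295. Each peak has a signal, which is the authors' value on a scale with no stated unit, so it was read within a list only. A gene was counted as having a summit where the highest point of a peak lay within 2000 bp of the hairpin. Replicate peaks and summits are those past the threshold unless the unthresholded lists are named. The files list peaks and no reads, so depth is unknown. Intervals on shares are Wilson 95% intervals over genes and cover counting error only. No comparison between conditions was possible, and no test was made of the shares below, which are descriptions.

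The mature forms below belong to the genes whose sites or seeds the results turn on, read 5′ to 3′ from the RefSeq annotation of Release 6, with the seed in capitals. The first pair shares a seed and a host with the highest signal of all microRNA genes, and the second pair shares a seed across separate hosts. The bantam, mir-282, mir-965, mir-274, mir-275 and mir-305 forms belong to further genes with high signals. The mir-92 pair shares a seed within jigr1, and the mir-2 pair lies in spi. The last line is let-7 itself, whose gene had no summit.
mir-279: uGACUAGAuccacacucauuaa
mir-996: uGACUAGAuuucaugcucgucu
mir-276a: uAGGAACUucauaccgugcucu
mir-276b: uAGGAACUuaauaccgugcucu
mir-ban: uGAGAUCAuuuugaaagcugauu
mir-282: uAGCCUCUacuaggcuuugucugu
mir-965: uAAGCGUAuagcuuuuccccuu
mir-274: uUUGUGACcgacacuaacgggua
mir-275: uCAGGUACcugaaguagcgcgcg
mir-305: aUUGUACUucaucaggugcucug
mir-92a: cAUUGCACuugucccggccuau
mir-92b: aAUUGCACuagucccggccugc
mir-2a-1: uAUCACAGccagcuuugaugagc
mir-2b-2: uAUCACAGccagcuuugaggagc
mir-let7: uGAGGUAGuagguuguauagu

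The reference sequence from 50 bp before to 50 bp after the summit is shown for 6 sites, 5′ to 3′ on the strand of the microRNA, to let the sites be compared with each other. The mir-279 and mir-276a sites lie just upstream of the start of a noncoding host, the bantam site lies inside one, and the mir-92b site stands closer to its hairpin than the highest peak of any other microRNA gene. The mir-4962 and mir-955 sites carry 1 motif match each. Capitals mark matches on either strand to GAGAG, the core of the GAGA factor motif, or to ACAGTG, and a line without capitals holds neither word. The windows are chr3R:29214392-29214492 for mir-279, chr3L:10363845-10363945 for mir-276a, chr3L:640703-640803 for mir-ban, chr3R:25651557-25651657 for mir-92b, chrX:3776311-3776411 for mir-4962 and chr3L:3300466-3300566 for mir-955, all on the plus strand of dm6. GC content was highest in the mir-276a window at 54.5% and lowest in the mir-92b window at 27.7%.
mir-279 summit: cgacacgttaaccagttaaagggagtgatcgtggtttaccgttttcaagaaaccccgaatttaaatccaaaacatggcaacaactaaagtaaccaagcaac
mir-276a summit: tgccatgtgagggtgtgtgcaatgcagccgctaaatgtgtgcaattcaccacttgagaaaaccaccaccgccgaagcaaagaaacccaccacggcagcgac
mir-ban summit: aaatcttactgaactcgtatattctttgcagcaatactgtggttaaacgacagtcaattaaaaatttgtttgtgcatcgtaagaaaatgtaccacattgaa
mir-92b summit: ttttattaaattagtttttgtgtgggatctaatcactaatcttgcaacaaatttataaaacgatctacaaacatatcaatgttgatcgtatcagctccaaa
mir-4962 summit: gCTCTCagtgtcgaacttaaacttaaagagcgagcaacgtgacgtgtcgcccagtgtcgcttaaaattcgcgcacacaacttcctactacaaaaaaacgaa
mir-955 summit: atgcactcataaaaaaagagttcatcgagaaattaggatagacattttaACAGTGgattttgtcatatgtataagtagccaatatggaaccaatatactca

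Hairpins had a summit nearby about as often as any position of the arms, and at a lower share than tRNA or small nucleolar RNA genes. Of the 260 microRNA genes, 52 had a conservative summit within 2000 bp (20.0%, interval 15.6 to 25.3), against 19.2% of all single positions of the arms. The share was 36.9% of 290 tRNA genes (interval 31.5 to 42.6), 38.6% of 267 small nucleolar RNA genes and 31.5% of the 685 other short genes of both types with snRNA and rRNA genes, all at most 300 bp long. It was 40.5% of protein-coding genes and 38.6% of all other genes, which are longer and so offer a wider window. Replicate 1 gave 35 microRNA genes (13.5%) and replicate 2 gave 43 (16.5%), or 15.0% ± 2.18 (SD, n = 2). The matching shares of arm positions were 14.9% in replicate 1 and 17.3% in replicate 2. Other short genes were at 18.2% in replicate 1 and 33.9% in replicate 2. The microRNA share minus that of the other short genes was therefore -11.5 percentage points in the conservative list, -4.79 in replicate 1 alone and -17.3 in replicate 2 alone. All 3 differences had the same sign, and their size depended on the replicate.

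**Figure D1:**
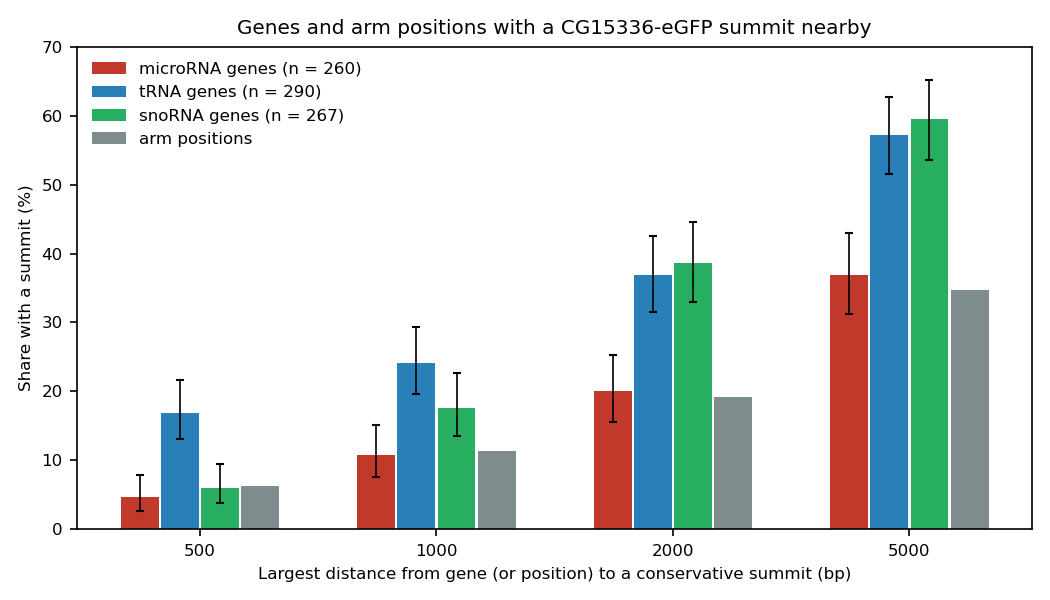
Share of microRNA genes, tRNA genes, snoRNA genes and arm positions with a conservative summit within the distance on the x axis, in percent. Bars give the share and lines its Wilson 95% interval over genes. At 2000 bp the microRNA genes stood at 20.0%, near the arm positions at 19.2% and below the tRNA genes at 36.9%.

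At other distances the share of microRNA genes also stood within 3 percentage points of that of arm positions. Within 500 bp, 12 microRNA genes had a summit (4.62%), against 16.9% of tRNA genes, 5.99% of small nucleolar RNA genes and 6.31% of arm positions. Within 1000 bp it was 28 (10.8%), against 24.1%, 17.6% and 11.3% of the same sets. Within 5000 bp it was 96 (36.9%), against 57.2%, 59.6% and 34.7%. The interval of a conservative peak overlapped 3 hairpins, and in 1 of them, mir-4962, the summit itself lay inside the hairpin. The genes just inside the limit of 2000 bp were mir-4943 at 1963 bp and mir-1012 at 1946 bp, and those just outside were mir-1013 at 2007 bp and mir-2489 at 2071 bp. Hairpins less than 10000 bp apart on a strand were also joined into 203 loci, of which 42 had a summit (20.7%, interval 15.7 to 26.8). The tRNA, small nucleolar RNA and other short genes were not joined in this way, so neighbours among them may share a peak.

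The microRNA genes with the highest signals had a summit in each replicate. In 30 microRNA genes (11.5%) each replicate had a summit within 2000 bp, against 15.8% of other short genes. All 30 also had a conservative summit. The conservative list was made from the same 2 replicates, so neither result is separate support. Of the remaining 22 with a conservative summit, 11 had a summit in 1 replicate and 11 in neither. A further 7 had a summit in 1 replicate only and none in the conservative list. Of these, mir-996 was the only one in replicate 1, with a signal of 25.4, rank 6385 of its list. By arm, 8 of 31 microRNA genes on 3L had a conservative summit, 13 of 56 on 2L, 15 of 55 on 2R, 9 of 58 on 3R, 7 of 58 on X and 0 of 2 on chromosome 4. The X share was 12.1% (interval 5.97 to 22.9), against 20.8% of X positions. The 2R share went the other way, at 27.3% (interval 17.3 to 40.2), against 18.3% of 2R positions. Both intervals include the share of positions. On 2L, 3L and 3R it was 23.2%, 25.8% and 15.5%, against 19.7%, 20.4% and 17.9% of positions. All positions of an arm were counted, and long stretches without a summit lower their share. On 2R, mir-2279 lay 2943921 bp from its nearest conservative summit.

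The 52 genes drew on 65 conservative peaks, since some had several and some shared one. The 65 are not all separate sites, since some summits stood beside a higher one and overlapped the same replicate peaks. Examples are the summits of 150 and 7.85 at the mir-310 cluster and of 142 and 20.5 at bantam. Such summits were not joined, so the strength, start, GC and motif figures count each of them. Counted in this way, the 65 peaks were of ordinary strength for the list. Their median signal was 129, against 123 over all peaks, and their median rank lay at 47.0% of the list. Of the 65, 11 lay in the highest 25% of the list, 24 in the next 25%, 11 in the next and 19 in the lowest. Median width was 384 bp in both sets. Of the 65, 26 (40.0%) had the summit within 500 bp of a transcript start of another gene, against 34.5% of all conservative peaks. This count was 17 in replicate 1 alone. Mean GC content over the 50 bp to each side of the summit was 39.3% at microRNA genes, with an SD over peaks of 11.7 percentage points, against 33.9% with an SD of 10.4 over all peaks. In windows centred 300 bp to each side it was 42.4% at microRNA genes, against 44.3% over all peaks.

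Motif matches were counted in the same window on both strands. GAGAG stood at 9 of the 65 peaks (13.8%), against 12.5% of all peaks. ACAGTG stood at 8 (12.3%), against 5.27%, and runs of 8 A or 8 T at 7 (10.8%), against 12.6%. The words were counted separately, so a window can count for more than one. GAGAG was found at 4 of the 5 mir-4962 peaks, and ACAGTG at the peak shared by mir-310 to mir-313. The highest and the weakest mir-4962 peak both held GAGAG and overlapped the same replicate peaks, so this site entered more than once. ACAGTG also stood at a weaker summit beside a higher one at mir-14 and at mir-282.

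A hairpin in a noncoding host had the highest peak of all microRNA genes, and the highest peak at each gene of this class with a summit lay upstream of the hairpin. Of 46 microRNA genes within a noncoding gene on the same strand, 10 had a summit (21.7%, interval 12.3 to 35.6). In all 10 the highest peak lay upstream of the hairpin, at a median distance of 1118.5 bp. Over all 52 genes the median distance to either side was 1119 bp, and the window of 2000 bp bounds both. In 5 of the 10 the highest peak lay within 500 bp of a host start. Weaker conservative peaks also stood downstream, at bantam with signals of 142 and 20.5 and at mir-282 with 147 and 129. The bantam pair overlapped the same peak of replicate 2, so its members are not separate sites. The median signal of the highest peak at the 10 genes was 249, against 109 for the 28 genes in coding hosts. The nearest host start upstream lay a median of 1518 bp away over the 46. One of their own starts had a summit within 500 bp in 8 of the 32 noncoding hosts (25%, interval 13.3 to 42.1), against 12.8% of 2488 noncoding RNA genes that host no microRNA. The 2 sets were not matched for length or number of starts, and a gene with more starts has more chances to be counted. Replicate 1 gave 7 and replicate 2 gave 9 of the 32. With a window of 200 bp around the start it was 5.

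The highest of these sites stood at lncRNA:CR31044, which contains mir-279 and mir-996. Both limit the formation of carbon dioxide sensing neurons. The mir-279 hairpin lies at chr3R:29215585-29215684 in an exon of the host. The peak, chr3R:29214254-29214598, had its summit 120 bp upstream of the host start and 1143 bp upstream of the hairpin. Its signal was 1697 in the conservative list, 773 in replicate 1 and 925 in replicate 2. It ranked 18 of 9295, 21 of 6678 and 16 of 8219. The next highest microRNA gene, mir-14, stood at 463 in the conservative list. The mir-996 hairpin lay 2742 bp from the same summit, outside the window.

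The other 7 noncoding hosts with a start peak had lower signals there. lncRNA:CR43651 contains mir-14, which restrains cell death, fat storage and ecdysone receptor levels. Its summit lay 176 bp upstream of the start and 1094 bp upstream of the hairpin, with a signal of 463 in the conservative list, 194 in replicate 1 and 266 in replicate 2. lncRNA:CR46006 contains mir-276a, which acts in olfactory memory, and its summit lay 124 bp upstream of the start. The signal there was 396 in the conservative list, 128 in replicate 1 and 263 in replicate 2. lncRNA:CR43626 contains mir-282, and its start peak, 431 bp upstream of a start, had a signal of 396 in the conservative list, 221 in replicate 1 and 185 in replicate 2. That summit lay just over 2000 bp from the hairpin, and a weaker peak 853 bp upstream of the hairpin, with 292, was counted for mir-282.

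lncRNA:CR43857, which contains mir-275, had a start peak of 263 in the conservative list, 123 in replicate 1 and 148 in replicate 2. mir-275 and its neighbour mir-305, which acts in gut stem cells, shared another peak 445 bp upstream of mir-275 with 207, 120 and 88.8 in the same lists. lncRNA:CR43650 contains mir-8, the fly member of the mir-200 family and a regulator of body growth. Its summit lay 141 bp upstream of the start, with a signal of 181 in the conservative list, 94.98 in replicate 1 and 76.8 in replicate 2. lncRNA:CR43334 contains bantam. Its start, far from the hairpin, had 184 in the conservative list, 64.7 in replicate 1 and 116 in replicate 2. The highest peak near the bantam hairpin, with 299, 131 and 160 in the same lists, stood inside the host, 1455 bp upstream of the hairpin and 1039 bp past the nearest start. lncRNA:CR43314, which contains mir-bft (also called mir-263a), a factor in the survival of sensory bristles, had 87.5 at a start in the conservative list. No peak there passed the threshold in either replicate.

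The remaining 24 noncoding hosts had no conservative summit at a start. The let-7 complex, lncRNA:let7C, had its nearest summit 543 bp past a start, just outside the limit. lncRNA:CR45916, with mir-9a, a brake on sense organ formation, had its nearest 716 bp upstream of a start, and lncRNA:CR43459, with mir-277 and mir-34, had it 4447 bp past a start. The last 2 of these 3 each had a start peak in replicate 2 and none in replicate 1.

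**Figure D2:**
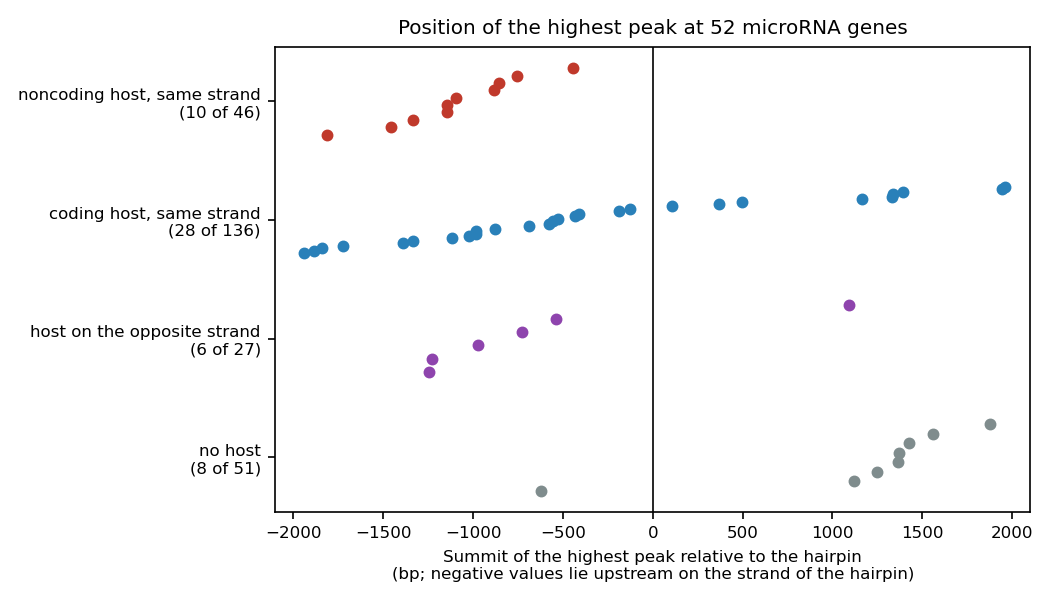
Position of the summit of the highest conservative peak relative to the hairpin, in bp, for each of the 52 microRNA genes with one, by kind of host; the counts at the left give genes with a summit of all genes of that kind. All 10 points of noncoding hosts lie upstream, and 7 of the 8 points without a host lie downstream.

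Hairpins in protein-coding hosts were the largest class. Of 136 on the strand of the host, 28 had a summit (20.6%, interval 14.6 to 28.1), 19 of them with the highest peak upstream and 9 downstream. It was 24 of 100 where the hairpin touched no exon of the host and 4 of 36 where it did. A start peak, in the same sense, was present in 36 of the 124 coding hosts (29.0%, interval 21.8 to 37.6), against 21.3% of other protein-coding genes. These sets, too, were not matched for length or number of starts. The strongest of these host starts were Btk, a tyrosine kinase gene with mir-2b-1 inside (signal 1730, rank 16), CG5953 with mir-4943 (1095), for, a cGMP-dependent kinase gene with mir-4972 (857), spi, which encodes an EGF receptor ligand and contains mir-2a-1, mir-2a-2 and mir-2b-2 (546), bun with mir-967 (543) and MRP with mir-9382 (469). All 6 had a peak in each replicate. None of these 6 summits lay within 2000 bp of the hairpin inside, and mir-2b-1 and mir-9382 had no summit of their own.

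The higher peaks near hairpins of coding hosts included sites far from any start. The mir-9377 hairpin lies in an intron of Tis11, which encodes a factor of messenger RNA decay, and its peak, 369 bp downstream, was 5103 bp from the nearest start, with a signal of 453 in the conservative list, 212 in replicate 1 and 234 in replicate 2. The mir-965 hairpin lies in an intron of kis, a chromatin remodeller gene, with a peak 879 bp upstream of the hairpin, which had 399.9, 161 and 245 in the same lists. The mir-2491 hairpin lies in an intron of fog, with a peak 124 bp upstream, which had 371, 179 and 187. The mir-4962 peak lay 302 bp past a start of the kinase gene Tlk, with 296, 136 and 146. A further 4 conservative peaks stood within 2000 bp of this hairpin. The weakest of the 4 overlapped the same replicate peaks as the highest peak, so it is not a separate site. Another of the 4 had its summit inside the hairpin. Its signal was 161 in the conservative list, 73.95 in replicate 1 and 89.7 in replicate 2. The mir-4972 peak lay 1340 bp downstream, with 278, 109 and 171. Each of these 5 hairpins had a summit in both replicates, but this was part of the rule by which genes were named.

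The jigr1 locus placed a pair of hairpins of 1 seed next to peaks. mir-92a acts in neuroblasts and mir-92b in muscle, where it limits Mef2. Of the highest peak at each of the 52 genes, that of mir-92b was the nearest to its hairpin, 110 bp downstream, with a signal of 197 in the conservative list, 76.6 in replicate 1 and 113 in replicate 2. The mir-92a peak lay 496 bp downstream of the hairpin and 150 bp upstream of a start of jigr1, with 171, 75.004 and 91.1 in the same lists. Other hairpins of coding hosts with a summit in each replicate were mir-4968 in Mob2, with a signal of 201 in the conservative list, mir-2492 in Drak with 193, mir-9370 in Amun with 175 and mir-9378 in CG17124 with 171.

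**Figure D3:**
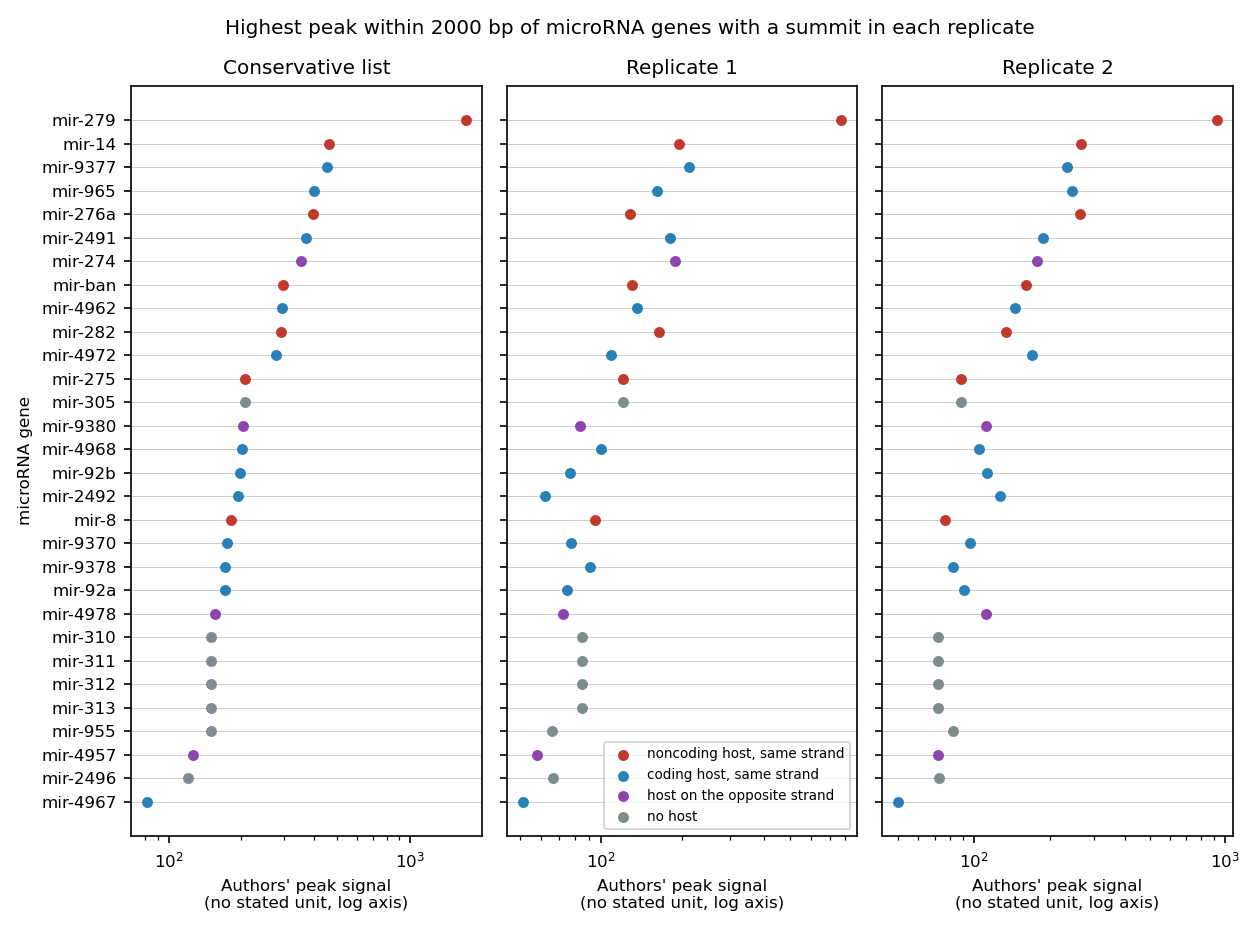
Authors' signal of the highest peak within 2000 bp of each of the 30 microRNA genes with a summit in each replicate, shown for the conservative list, replicate 1 and replicate 2 on log axes with no stated unit; colours give the kind of host. The mir-279 point stands highest in all 3 panels, at 1697, 773 and 925.

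Hairpins on the other strand of a gene or outside all genes made up the rest. Of 27 within a gene on the opposite strand, 6 had a summit (22.2%, interval 10.6 to 40.8). The highest was mir-274, opposite CG32085, with a summit 538 bp upstream and a signal of 354 in the conservative list, 187 in replicate 1 and 178 in replicate 2. It was followed by mir-9380, opposite CG7352, with a signal of 204, and by mir-4978, opposite the Notch coactivator gene mam, with 156. Of 51 microRNA genes without a host, 8 had a summit (15.7%, interval 8.17 to 28.0), 7 of them downstream of the hairpin. Of these 7, 5 are mir-310, mir-311, mir-312, mir-313 and mir-2498, a cluster expressed in testis and ovary. The first 4 shared a peak with a signal of 150, of 85.3 in replicate 1 and of 71.6 in replicate 2, which lay 498 bp upstream of a start of the neighbouring gene qsm. mir-2498 had a summit of 7.85, among the lowest of the list. This summit stood beside the one shared by the first 4 and overlapped the same replicate peaks, so it is not a separate site.

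Some genes that share a seed also shared a peak, so they are not separate sites. The 260 genes had 481 annotated mature sequences, and 33 seeds were shared by 2 or more genes, of which 14 had a member with a summit. No share expected for sets of these sizes was computed. Genes that share more than 1 seed, such as mir-276a and mir-276b, enter once for each seed. The seed of mir-92a, mir-92b and mir-310 to mir-313 had a summit at 6 of 6 genes, of which mir-310 to mir-313 shared their peak. The seed of mir-2, mir-5, mir-6, mir-11, mir-13 and mir-308, some of whose members restrain proapoptotic genes, had one at 5 of 14 genes. Of these, mir-2a-1, mir-2a-2 and mir-2b-2 shared a peak of 76.7. It passed the threshold in replicate 2 at 43.8 and not in replicate 1, where the unthresholded list held an overlapping peak of 33.8. The other members of the 5, mir-308 (79.3) and mir-11 (71.9), passed it in neither replicate. Overlapping peaks in the unthresholded lists of replicates 1 and 2 were 28.7 and 45.1 at mir-308 and 37.1 and 36.5 at mir-11. mir-276a and mir-276b both had a summit, at 396 and 75.2. Of mir-279, mir-286 and mir-996, mir-279 had one.

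By known role, the counts were small. The lists held neither let-7 nor bantam, so both were counted among the genes in no list. Of the 7 listed genes of the let-7 complex, hormone response and timing, mir-14, mir-8 and mir-965, which acts in histoblasts, had a summit (42.9%, interval 15.8 to 74.95), in each replicate as well. The others, with the distance to the nearest conservative summit, were mir-100 at 2657 bp, mir-125 at 3538 bp, mir-34 at 2728 bp and mir-252 at 11242 bp. The hairpin of let-7 itself lay 3257 bp from the summit nearest to mir-100 and mir-125 as well, which had a signal of 138. With let-7 put in this list, 3 of 8 had a summit (37.5%, interval 13.7 to 69.4). Among the 21 listed survival and growth genes 7 had one (33.3%, interval 17.2 to 54.6), 2 of them in each replicate as well. With bantam put in, which has a summit, it was 8 of 22 (36.4%, interval 19.7 to 57.0). The lower end of the interval then lay above the 19.2% of arm positions. That interval takes genes as separate, although mir-2a-1, mir-2a-2 and mir-2b-2 share a peak, as do mir-275 and mir-305. No conclusion was drawn from it. Both additions were made after the values were seen. Among 15 genes of the nervous system and sense organs 4 did (26.7%), which were mir-279, mir-276a, mir-282 and mir-92a. Among muscle genes mir-92b had one, while mir-1 and mir-133, which act in muscle differentiation, were 7300 bp and 28880 bp from their nearest.

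None of the 4 genes of the Hox complexes had a summit, which allows a share of up to 49.0% by the Wilson interval. mir-10 lay 9210 bp from its nearest summit and mir-993 lay 13263 bp from its own. mir-iab-4 and mir-iab-8, read from the 2 strands of 1 hairpin, lay 51659 bp away. None of the 4 had a peak within 2000 bp even in the unthresholded list of either replicate. Among 14 mirtrons, short introns that form the hairpin by splicing, 2 had a summit, mir-1012 (91.9) and mir-1008 (70.3), and neither had one in both replicates. In testis-enriched clusters it was 5 of 26, all of the mir-310 group. Of the 170 genes in no list, let-7 and bantam among them, 30 had one (17.6%, interval 12.7 to 24.1), and without this pair it was 29 of 168 (17.3%).

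**Figure D4:**
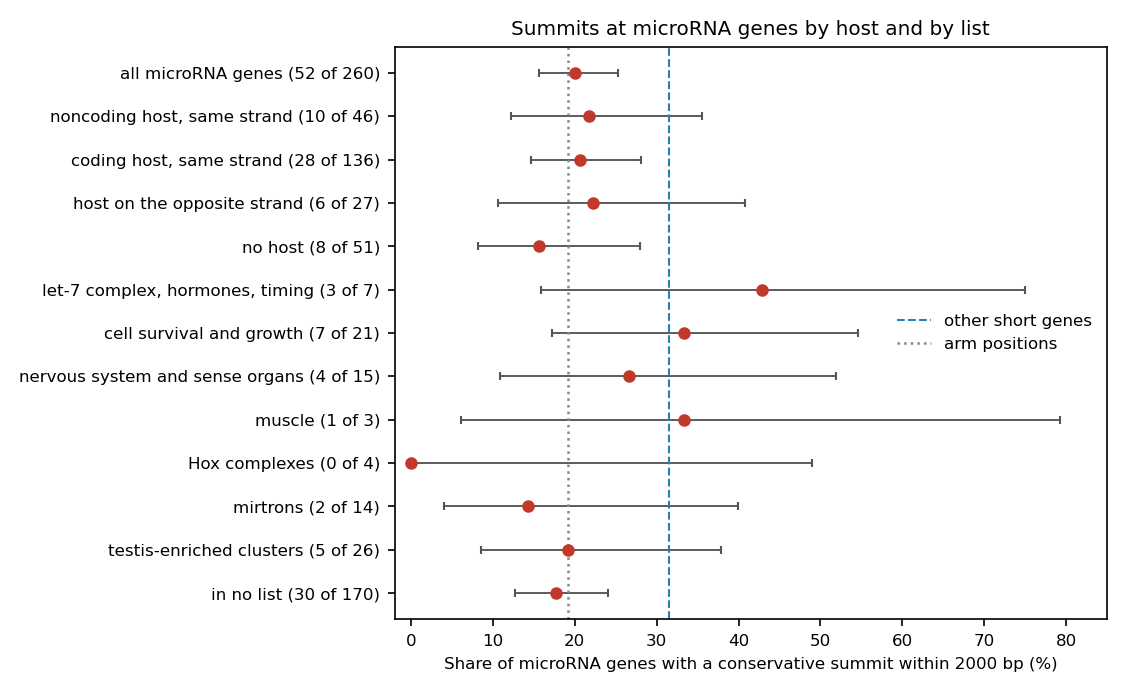
Share of microRNA genes with a conservative summit within 2000 bp by kind of host and by list, in percent, with Wilson 95% intervals over genes; the dashed line marks other short genes at 31.5% and the dotted line arm positions at 19.2%. The intervals of all 4 kinds of host and of all 7 lists, which hold neither let-7 nor bantam, include the share of arm positions. With bantam put in after its summit was known, the survival and growth interval is 19.7 to 57.0. It counts genes that share a peak as separate.

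Genes of the microRNA pathway proteins were read at their own starts. A conservative summit lay within 500 bp of a start in 6 of 22 genes (27.3%, interval 13.2 to 48.2), against the 21.3% of protein-coding genes given above, again not matched for the number of starts. These were r2d2, a partner of Dicer-2, with a signal of 192, AGO1, the Argonaute that most microRNAs load into, with 190, Ars2, a cap-binding partner, with 149, AGO2 with 99.7, and the deadenylase genes twin with 91.0 and Pop2 with 75.7. The AGO1 peak was present in replicate 1 at 63.8 and in replicate 2 at 133, and each of the other 5 was present in 1 replicate. Within 2000 bp of the gene, 13 of the 22 had a conservative summit, against 40.5% of protein-coding genes. Those without one included drosha, Dcr-1 and gw. pasha, the partner of Drosha, had one of 817 within 2000 bp that was not at its start.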

How the data were processed

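Per the deposited listings, the authors called peaks for either replicate and for the pair, on dm6 per the labels. Which aligner and caller they used is not given in the sources used here. The deposited signal of each peak has no stated scale. The deposited score is a scaled discovery rate of at least 830 in the thresholded lists. The deposited ranked lists give its −log10, at least 2.00 in the conservative list. The 16 unnamed columns per replicate in the lists made from both replicates were not used.

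Coordinates are 1-based, and arm lengths of Release 6 match dm6. Transposable elements, 481 annotation entries for mature microRNAs, which lie inside the hairpins, and 2 microRNA genes off the arms were left out. A host contains the whole hairpin, with same-strand coding genes preferred. The highest peak in the window stands for a gene. Genes were named where each replicate and the conservative list had a summit, for the 25 highest signals, with all genes of the timing, muscle and Hox lists and up to 4 of each other list. The members, lists, motifs and rules were chosen with earlier results of these data known. No test between groups was possible. Alternatives were other lists, each replicate alone, other windows and a rate of 0.001. Other genes were named after their values were seen. Tools were numpy 2.4.6, scipy 1.17.1, pandas 2.3.3 and matplotlib 3.10.9 under Python 3.11.15, and the search was tested on simulated data.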

Additional observations from a re-analysis of the deposited data

How the results depend on the processing

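Of the 12 results followed, only the difference from other short genes has a sign, and it stayed negative in all its alternatives. The others are counts or a rank, which cannot change sign. The SD between replicates came from the same 2 replicates, so it cannot judge the settings with 1 replicate alone. Of the 73 alternatives, 46 moved no count by more than 1.5 times and no other value by more than this SD. The other 27 are given here, and the cause was not tested except where the setting itself narrows or widens the window or list. At a discovery rate of 0.001 or less, 33 microRNA genes, 26 loci and 25 genes with a host had a summit, 15 peaks lay at a start, and the median rank was 32.8%. The difference from other short genes shrank at this rate from -11.5 to -3.80 percentage points. It was not counted as moved only because its SD between replicates was 8.87. Within 500 bp the counts were 12 genes, 7 with a summit of each replicate, 11 loci, 12 with a host and 0 without, and the median rank was 32.4%. Within 1000 bp they were 28, 17, 24, 25 and 3. Within 5000 bp they were 96, 69, 77, 81 and 15, with a median rank of 42.5%. Unthresholded lists gave 128 genes with a summit of each replicate. A start window of 200 bp gave 14 peaks and 5 noncoding hosts. Using 1 replicate alone gave 35 to 43 genes, 28 to 36 loci, 28 to 35 genes with a host, 7 to 8 without, 17 to 23 peaks at a start, 7 to 9 noncoding hosts, a median rank of 45.6% to 49.6% and a difference from other short genes of -17.3 to -4.79 percentage points. No paired analysis was possible because the series has 1 group. The noncoding host count and the placing of let-7 and bantam in lists were added after the data were seen. Peak lists carry no depth, so a gene without a summit may hold a site below the threshold.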
